A study of Homo sapiens with 6 samples.

Results

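The genes described here are 10 genes of signalling through the interleukin-6 family of cytokines and the transcription factor STAT3: the receptor genes IL6ST, LIFR and OSMR, the ligand gene LIF, STAT3 itself, the feedback inhibitor genes SOCS3 and CISH, the transcription factor genes CEBPB and CEBPD, and the acute-phase gene SERPINA3. They were found by symbol among the 36601 genes of each matrix, and all 10 were present. The set was chosen by earlier results of these data, namely the changes of SOCS3 and CEBPD in rods and of SOCS3 in cones, and these are therefore given as a description with no test. Over all gated cells the other classes share cells with rods, so SOCS3 and CEBPD are described there too, and are tested only in cells of 1 gate of a class that did not choose them. The cells were fragments of retinal organoids grown from WA09 CRX-tdTomato cells, a human embryonic stem cell line with a fluorescent reporter for CRX, a transcription factor of photoreceptor precursors. Organoids of day 113 to day 126 were broken up by trituration. Fragments of each batch were either injected under the retina of normal dogs (transplanted) or kept in a dish (cultured), and both were taken for single-cell sequencing after 3 days. The experiment was done 3 times, in Sets 1, 2 and 3, so n = 3 samples per group, with the Set as the pair. Both groups share the cell line, the reporter, the trituration and the enzymatic dissociation, and a transplanted sample can also hold cells of the dog host.

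The interleukin-6 family cytokines, among them LIF, oncostatin M and CNTF, bind receptors that share the subunit gp130, made from IL6ST. gp130 joins the LIF receptor (LIFR) or the oncostatin M receptor (OSMR), the JAK kinases bound to the receptor tails are activated, and these phosphorylate STAT3, which enters the nucleus and turns on its targets. SOCS3 is one such target and binds gp130 to shut the signal down, CISH is the related inhibitor best known as a STAT5 target, and C/EBP-beta and C/EBP-delta, made from CEBPB and CEBPD, act with STAT3 on acute-phase genes such as SERPINA3, a secreted protease inhibitor. In the retina this pathway is known for the response of Müller glia to injury and for protecting photoreceptors.

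Promoter sequence is shown for 3 members that are known to be turned on by STAT factors: the feedback inhibitors CISH and SOCS3, and SERPINA3, the member with the largest fitted change after transplantation. RefSeq promoter windows (GRCh38.p14) were matched for 8 of the 10 members, with 12 windows among them. The capitals mark each match to the STAT motif TTCNNNGAA, searched on both strands, which here is its own reverse complement. The stretches lie in front of the annotated gene, at chr3:50611832-50612024 (minus strand) for CISH, chr17:78360926-78361175 (minus strand) for SOCS3 and chr14:94612141-94612376 (plus strand) for SERPINA3. Those of CISH and SERPINA3 adjoin the gene, but the annotated SOCS3 gene begins at chr17:78360077, so its stretch lies at a distance from it.
CISH: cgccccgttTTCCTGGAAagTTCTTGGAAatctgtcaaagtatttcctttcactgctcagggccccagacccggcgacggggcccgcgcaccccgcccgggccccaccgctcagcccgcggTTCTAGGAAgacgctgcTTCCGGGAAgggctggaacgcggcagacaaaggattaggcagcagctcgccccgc
SOCS3: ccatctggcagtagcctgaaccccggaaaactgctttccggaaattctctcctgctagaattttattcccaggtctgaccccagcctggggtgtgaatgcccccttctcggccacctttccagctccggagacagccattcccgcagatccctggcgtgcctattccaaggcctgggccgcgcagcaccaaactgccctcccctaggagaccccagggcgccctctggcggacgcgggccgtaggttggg
SERPINA3: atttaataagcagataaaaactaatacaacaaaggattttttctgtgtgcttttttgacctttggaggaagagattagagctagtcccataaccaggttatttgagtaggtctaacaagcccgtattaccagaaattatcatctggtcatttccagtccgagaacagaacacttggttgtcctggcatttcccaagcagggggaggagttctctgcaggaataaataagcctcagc
The CISH stretch held 4 matches, which is the count that 5 of 35116 promoter windows of 250 bases reach or exceed (0.0142%). At least 1 match was found in 2306 of those windows (6.57%). The SOCS3 and SERPINA3 stretches held none of these letters, and neither held the C/EBP motif TTGCNNAA, also searched on both strands and found in 9.05% of all windows. The SOCS3 stretch leaves out the bases between it and the gene, so its lack of matches does not cover them. Matches describe letters only and show no binding.

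Cells were sorted into 4 classes by their own unique molecular identifier (UMI) counts: rods had at least 3 UMIs of NRL, the rod transcription factor; cones had at least 3 of PDE6H and more of it than of NRL; Müller glia had at least 3 of HES5, WIF1 and TTYH1 in sum; and collagen-gated cells, labelled fibroblasts, had at least 3 of COL1A1 and COL1A2 in sum. Of 39008 cells kept, 10815 were rods, 5104 cones, 9230 Müller glia and 693 collagen-gated cells, while 19312 passed no gate. The gates overlap, and only 14547 cells passed exactly 1, among them 6528 rods, 2647 cones, 5151 Müller glia and 221 collagen-gated cells. Cells of several gates were deep and carried most of the counts: they held between 46.4% and 78.3% of the UMIs of rods across the 6 samples, and up to 95.6% of those of Müller glia. The classes therefore share many of their UMIs, and the main results are given for all gated cells and for cells of 1 gate. Whether cells of several gates were doublets, carried free RNA or expressed the markers of several types was not tested. A level below is in CPM, the gene's share of all UMIs of the class in that sample, scaled to a fixed total. Such a sum weights deep cells more. Samples with fewer than 20 cells of a class entered no test of it, which left 4 samples of collagen-gated cells and, with 1 gate, 3 of them and 5 of cones. Set 1 was processed with another Cell Ranger version than Sets 2 and 3, so ratios between conditions are taken within a Set. Where groups are said to overlap, differences between Sets enter too. The label fibroblasts was met only in part. In cultured collagen-gated cells of 1 gate 9 fibroblast genes summed to between 973 and 2286 CPM, against at most 37.2 CPM in rods. The 9 include COL1A1 and COL1A2, so the gate set this contrast in part and the sum is no independent check. DCN and LUM, which define connective-tissue fibroblasts, were at 0 in collagen-gated cells of 1 gate in transplanted Set 1 and cultured Set 3. These samples held only 23 such cells (146086 UMIs) and 6 (68834 UMIs), so a low level could be missed there. The cultured ranges given here include the sample of 6 cells. The cultured cells also held 625 to 1255 CPM of Müller glia genes. Every collagen-gated cell of transplanted Sets 2 and 3 passed another gate too.

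The receptor genes did not pass the test for a change after transplantation in rods, cones or Müller glia where they were tested. Collagen-gated cells had no such test with the Set as a block. IL6ST was present in every class. IL6ST, the shared gp130 subunit, was at 74.8, 80.4 and 66.8 CPM in cultured rods of Sets 1, 2 and 3 and at 76.6, 97.5 and 92.0 CPM in transplanted rods. In Müller glia the cultured values were 78.7, 82.1 and 87.2 CPM and the transplanted ones 79.3, 87.6 and 96.7 CPM. Each Set's transplanted value lay above its cultured value, by 1.02 to 1.38 times in rods and 1.01 to 1.11 times in Müller glia, but the groups overlapped in both classes. The log2 change was 0.42 ± 0.23 (SE) in rods (edgeR quasi-likelihood test with the Set as a block and Benjamini-Hochberg adjustment, adjusted p = 0.38). Rods of 1 gate held 75.8, 79.2 and 50.7 CPM cultured and 76.5, 132 and 87.4 CPM transplanted, 1.01 to 1.72 times within a Set, which did not pass either (0.57 ± 0.23, edgeR adjusted p = 0.19). In cells of 1 gate IL6ST was higher in Müller glia than in rods by 0.37 ± 0.12 on the log2 scale (edgeR adjusted p = 0.012) and in collagen-gated cells than in rods by 0.67 ± 0.17 (edgeR adjusted p = 0.0021). The first of these did not pass without Set 2 (adjusted p = 0.084) or without Set 3 (adjusted p = 0.066). Over all gated cells the collagen-gated difference was smaller, at 0.27 ± 0.07, and the Müller glia one did not pass. The difference of cones from rods was 0.11 ± 0.12 in cells of 1 gate and did not pass.

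LIFR, the LIF-binding partner of gp130, was at 8.68, 20.7 and 26.3 CPM in cultured rods and at 9.38, 21.5 and 23.5 CPM in transplanted rods. Set 1 was lowest in both groups, and the transplanted and cultured values of a Set differed by 0.893 to 1.08 times. In Müller glia the cultured values were 9.66, 17.0 and 22.1 CPM and the transplanted ones 8.26, 14.1 and 15.7 CPM, lower in each Set, with a fitted log2 change of -0.13 ± 0.23 that did not pass. In rods of 1 gate LIFR was at 10.5, 29.2 and 22.1 CPM cultured and 14.0, 42.5 and 35.3 CPM transplanted, higher in each Set by 1.33 to 1.60 times, and this did not pass (log2 change 0.62 ± 0.23, edgeR adjusted p = 0.15). Between classes LIFR ran from cones and rods down to Müller glia and collagen-gated cells. Of these steps the difference of collagen-gated cells from rods passed over all gated cells (-0.33 ± 0.13, edgeR adjusted p = 0.045) but not in cells of 1 gate (-0.49 ± 0.34). With gates set on cells thinned to equal depth, the sign of the LIFR difference turned to 0.20.

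OSMR, the oncostatin M receptor subunit, was scarce in the 3 retinal classes. In rods it was at 0.336, 4.83 and 5.21 CPM cultured and at 0.874, 3.04 and 5.68 CPM transplanted, so the groups overlapped fully and the Set 1 values, from 5 and 15 UMIs, were the lowest. Collagen-gated cells of 1 gate held 5.46 CPM (4 UMIs) in cultured Set 1 and 22.5 CPM (22 UMIs) in cultured Set 2, and none was counted in transplanted Set 1, which had 23 such cells. The class difference from rods was 2.13 ± 0.58 on the log2 scale (edgeR adjusted p = 0.0045) and that from Müller glia 2.56 ± 0.62 (edgeR adjusted p = 0.0073). It rested on Set 2, since without it the difference from rods had an adjusted p of 0.14. Over all gated cells the OSMR difference from rods was 0.33 ± 0.23 and did not pass. Among other receptor genes, CNTFR, which binds CNTF, was at 24.4 ± 2.30 CPM (SD, n = 3) in cultured rods and 20.4 ± 7.09 CPM in transplanted rods, and at 26.5 ± 2.33 and 23.3 ± 4.68 CPM in Müller glia. With 1 gate CNTFR (0.53) and IL11RA, the interleukin-11 receptor (1.11), were higher in Müller glia than in rods on the log2 scale, with edgeR adjusted p-values of 0.018 and 0.0040.

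**Figure D1:**
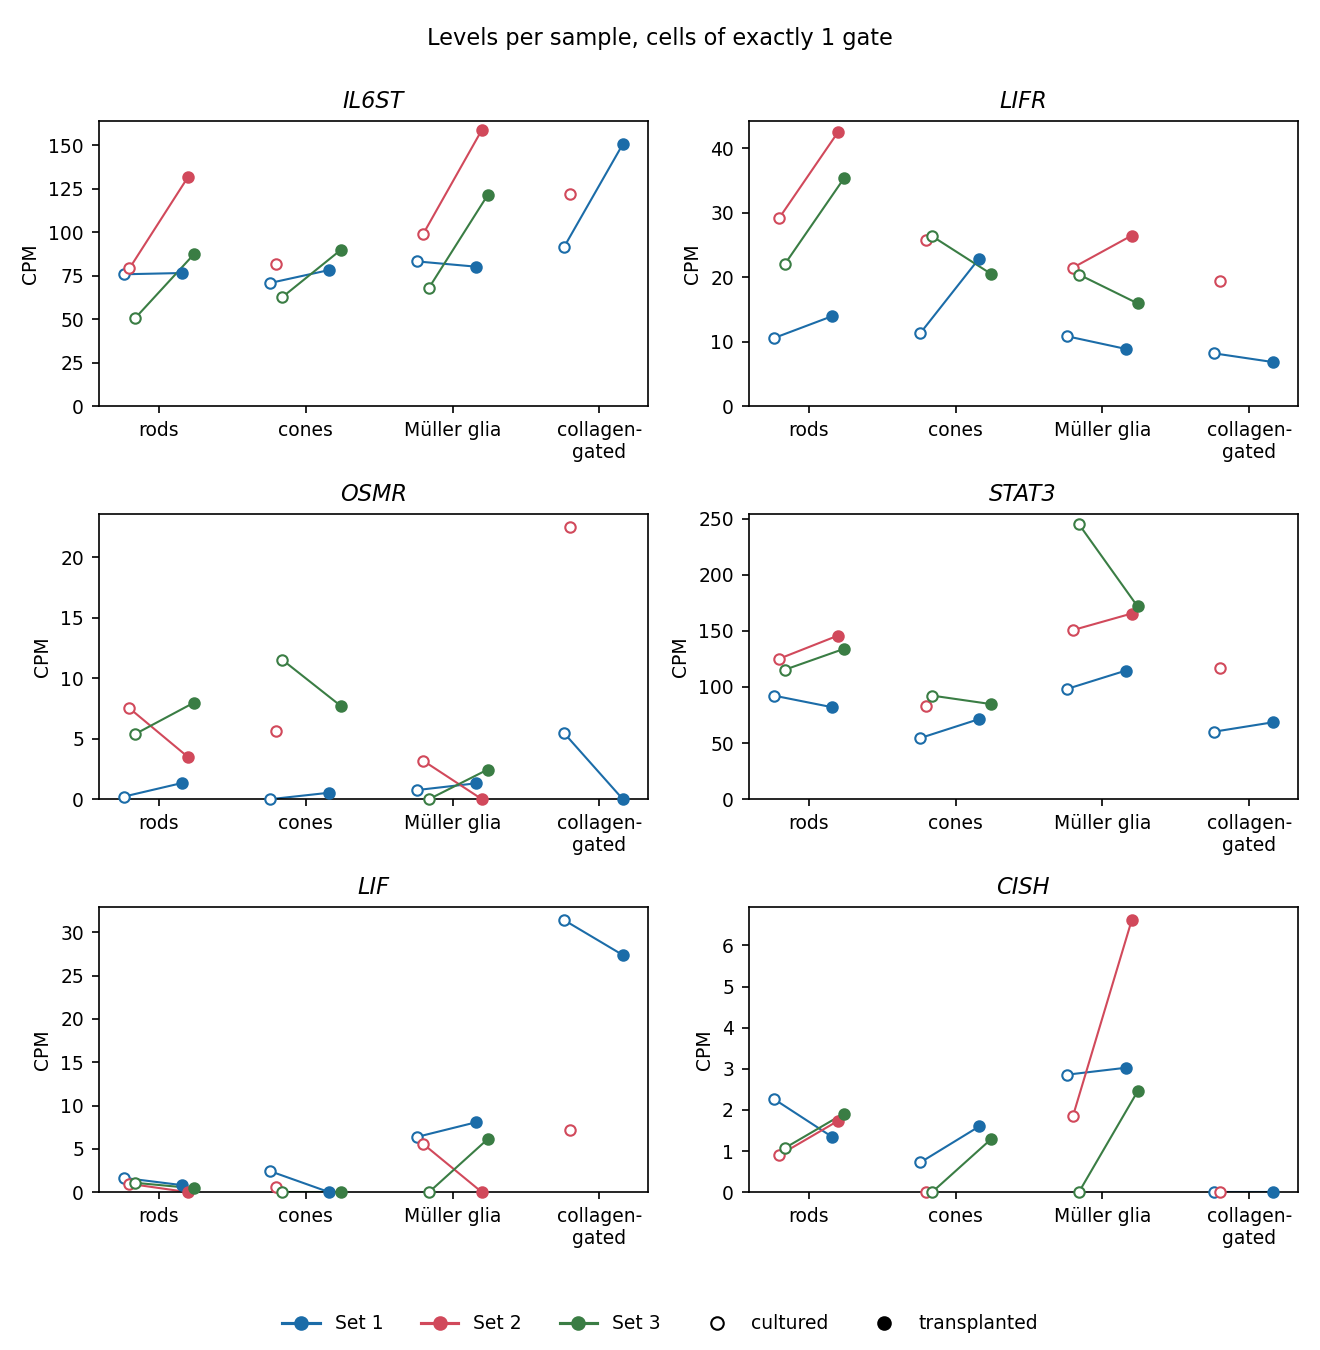
Levels of the receptor genes, STAT3, LIF and CISH in cells of exactly 1 gate, in CPM, by class. Open circles are cultured samples, filled circles transplanted ones, colours the Sets, and a line joins the samples of a Set. IL6ST was present in each class, LIF was highest in collagen-gated cells in Sets 1 and 2, OSMR was highest there in cultured Set 2 at 22.5 CPM but at 0 in transplanted Set 1, and LIFR and OSMR were lowest in Set 1 in rods.

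LIF, the ligand, had its highest level among the 4 gated classes in collagen-gated cells, though more of its UMIs came from other cells: in cultured Set 1, 34 from collagen-gated cells, 113 from Müller glia and 220 from cells of no gate. Cells of no gate held 12.1, 1.09 and 6.94 CPM cultured and 12.7, 0 and 0.957 CPM transplanted. Collagen-gated cells held 16.4 and 3.72 CPM in cultured Sets 1 and 2 and 16.3 and 6.74 CPM in transplanted Sets 1 and 3. With 1 gate they held 31.4 and 7.16 CPM in cultured Sets 1 and 2 (23 and 7 UMIs). In transplanted Set 1 they then held 27.4 CPM (4 UMIs). Rods held 2.15, 1.70 and 1.16 CPM cultured and 3.55, 3.26 and 1.76 CPM transplanted. In Müller glia LIF was at 4.75, 2.30 and 0.692 CPM cultured and 6.22, 4.4 and 3.28 CPM transplanted, higher in the transplanted sample of each Set but overlapping between groups. The log2 change did not pass in rods (0.89 ± 0.38, edgeR adjusted p = 0.25) or in Müller glia (0.92 ± 0.41, edgeR adjusted p = 0.28). LIF in rods of 1 gate was low: every sample was at or below 1.65 CPM and each transplanted value was below its Set's cultured one. The class order did pass: collagen-gated cells were above rods by 1.95 ± 0.18 over all gated cells (edgeR adjusted p = 4.4e-08) and by 4.0 ± 0.54 in cells of 1 gate (edgeR adjusted p = 1.8e-06). Müller glia were above rods by 0.78 ± 0.14 (edgeR adjusted p = 0.00023) and 2.64 ± 0.43 (edgeR adjusted p = 1.2e-05). Of 10 ligand genes of the family, 4 were measured in rods and none of these passed the test after transplantation over all gated cells. In rods of 1 gate the ligand gene IL11 fell, with a log2 change of -2.26 ± 0.54 (edgeR adjusted p = 0.021). Over all gated rods its change was -0.08 ± 0.30. IL6 was counted with 3 UMIs over all cultured rods and 19 over all transplanted ones, and OSM with 2 and 7. Between classes CLCF1, a ligand of the CNTF receptor, was higher in Müller glia than in rods of 1 gate by 2.03 on the log2 scale, and IL11, interleukin-11, by 1.71.

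STAT3 was present in all classes and did not pass the test for a change after transplantation in rods, cones or Müller glia. It was at 90.3, 125 and 124 CPM in cultured rods and 94.8, 99.0 and 114 CPM in transplanted rods, with a log2 change of 0.03 ± 0.24 (edgeR adjusted p = 0.96). In Müller glia the change was -0.07 ± 0.28 (edgeR adjusted p = 0.93). The changes in cells of 1 gate were 0.16 ± 0.23 in rods and 0.10 ± 0.38 in Müller glia, and neither passed. With 1 gate STAT3 was higher in Müller glia than in rods by 0.47 ± 0.13 (edgeR adjusted p = 0.0034) and lower in cones than in rods by 0.46 ± 0.14 (edgeR adjusted p = 0.026). Collagen-gated cells were below Müller glia (-0.64 ± 0.19, edgeR adjusted p = 0.034). JAK1, a kinase of this receptor, averaged 143 ± 34.0 CPM in rods kept in a dish and 147 ± 50.2 CPM in transplanted rods (SD, n = 3), and JAK2 at 33.5 ± 21.7 and 22.9 ± 15.7 CPM. Of the 9 JAK and STAT genes measured in rods, STAT4, a relative of STAT3, was the only one to pass, and it fell by 2.04 ± 0.24 on the log2 scale (edgeR adjusted p = 0.0029); in Müller glia it fell by 1.69 (edgeR adjusted p = 0.010). STAT4 also fell in rods of 1 gate, by 2.02 (edgeR adjusted p = 0.00097), and was too low to be tested in Müller glia of 1 gate.

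SOCS3, the feedback inhibitor of gp130, was higher in the transplanted sample of each Set in rods, cones and Müller glia. In rods it stood at 39.5, 9.84 and 11.6 CPM cultured and 72.0, 73.8 and 31.9 CPM transplanted in Sets 1, 2 and 3. In cones the values were 28.2, 8.53 and 12.2 CPM cultured and 58.6, 46.1 and 22.7 CPM transplanted. Both classes' groups overlapped through cultured Set 1, which was the highest cultured sample. The within-Set ratio in rods was 1.82 in Set 1, 7.50 in Set 2 and 2.76 in Set 3, with a fitted log2 change of 1.90 ± 0.35 in rods and 1.45 ± 0.29 in cones, given as a description. In rods of 1 gate SOCS3 was at 34.7, 7.88 and 10.3 CPM cultured and 60.7, 69.4 and 24.4 CPM transplanted, so the same order held without the shared cells (1.78 ± 0.39). In Müller glia SOCS3 was at 52.3, 12.2 and 17.3 CPM cultured and 91.6, 79.4 and 38.2 CPM transplanted, a fitted change of 1.76 ± 0.34, with 43.1% to 95.9% of its UMIs in cells of several gates. In Müller glia of 1 gate SOCS3 did not pass (1.28 ± 0.38, edgeR adjusted p = 0.11). There Set 1 went from 59.5 to 104 CPM and Set 2 from 20.7 to 112 CPM, while Set 3 held 34.0 CPM cultured, from 5 UMIs, and 34.3 CPM transplanted, from 28 UMIs. The share of rods with a SOCS3 UMI after thinning each cell to 1000 UMIs went from 4.21% to 5.24% in Set 1, from 0.750% to 5.82% in Set 2 and from 1.03% to 2.19% in Set 3. Between classes SOCS3 was highest in Müller glia, above rods by 0.37 ± 0.06 (edgeR adjusted p = 0.00017), and lowest in cones, below rods by 0.37 ± 0.07 (edgeR adjusted p = 0.0019). With 1 gate both differences were larger, at 0.98 ± 0.15 (edgeR adjusted p = 6.2e-06) and -0.87 ± 0.19 (edgeR adjusted p = 0.0022).

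CISH, the other inhibitor, was scarce, between 1.17 and 4.99 CPM in rods. It was at 1.75, 1.17 and 1.74 CPM in cultured and 3.03, 4.99 and 1.45 CPM in transplanted rods, higher after transplantation in Sets 1 and 2 and lower in Set 3. Its log2 change in rods was 1.18 ± 0.47 and did not pass (edgeR adjusted p = 0.21); in Müller glia it was 1.01 ± 0.51 (edgeR adjusted p = 0.36). Of the 14 inhibitor genes of the pathway measured in rods, other than the members, none passed the test. The 4 STAT motif matches printed for CISH stood beside a level too low to be tested in any class of 1 gate.

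CEBPD, which makes C/EBP-delta, was higher in every transplanted than in every cultured sample in rods, cones and Müller glia. In rods it was at 81.6, 43.8 and 20.3 CPM cultured and 163, 253 and 156 CPM transplanted, and the ratio within a Set was 2.0, 5.77 and 7.70 (log2 change 2.30 ± 0.40, a description). In rods of 1 gate the values were 81.8, 37.5 and 16.2 CPM cultured and 191, 181 and 100.3 CPM transplanted, again without overlap. In cones CEBPD stood at 81.1, 49.0 and 25.0 CPM cultured and 178, 114 and 159 CPM transplanted. The fitted change over all gated cones was 1.67 ± 0.37. In cones of 1 gate, from Sets 1 and 3, CEBPD rose by 1.88 ± 0.41 (edgeR adjusted p = 0.0012). In Müller glia it was at 66.6, 44.3 and 31.1 CPM cultured and 120, 278 and 182 CPM transplanted, a fitted change of 2.21 ± 0.40, with 58.5% to 97.5% of its UMIs in cells of several gates. CEBPD rose in Müller glia of 1 gate by 1.54 ± 0.37 (edgeR adjusted p = 0.024), a call that missed the threshold without Set 1 (adjusted p = 0.23) or Set 2 (adjusted p = 0.55). After thinning to 1000 UMIs the share of rods with a CEBPD UMI was 7.88%, 3.69% and 2.05% cultured and 15.9%, 13.8% and 9.30% transplanted. No class difference from rods passed for CEBPD.

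CEBPB, which makes C/EBP-beta, moved less. In rods it was at 23.3, 29.4 and 29.2 CPM cultured and 56.3, 57.5 and 33.8 CPM transplanted, without overlap, and it rose by 0.99 ± 0.20 (edgeR adjusted p = 0.027). Without any 1 Set it missed the threshold, with adjusted p-values of 0.055 to 0.11, and in rods of 1 gate it was not called (0.90 ± 0.27, adjusted p = 0.070). Set 3 held the smallest step, 1.16 times in rods, and in Müller glia of Set 3 the transplanted value, 32.8 CPM, was below the cultured one, 40.1 CPM. The Müller glia change was 0.91 ± 0.26 (edgeR adjusted p = 0.089). In cones it was 0.92 ± 0.26 over all gated cells (edgeR adjusted p = 0.14) and 1.48 ± 0.40 in cells of 1 gate (edgeR adjusted p = 0.020). Without Set 3 CEBPB passed both in Müller glia (1.23, edgeR adjusted p = 0.0043) and over all gated cones (1.24, edgeR adjusted p = 0.00087).

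**Figure D2:**
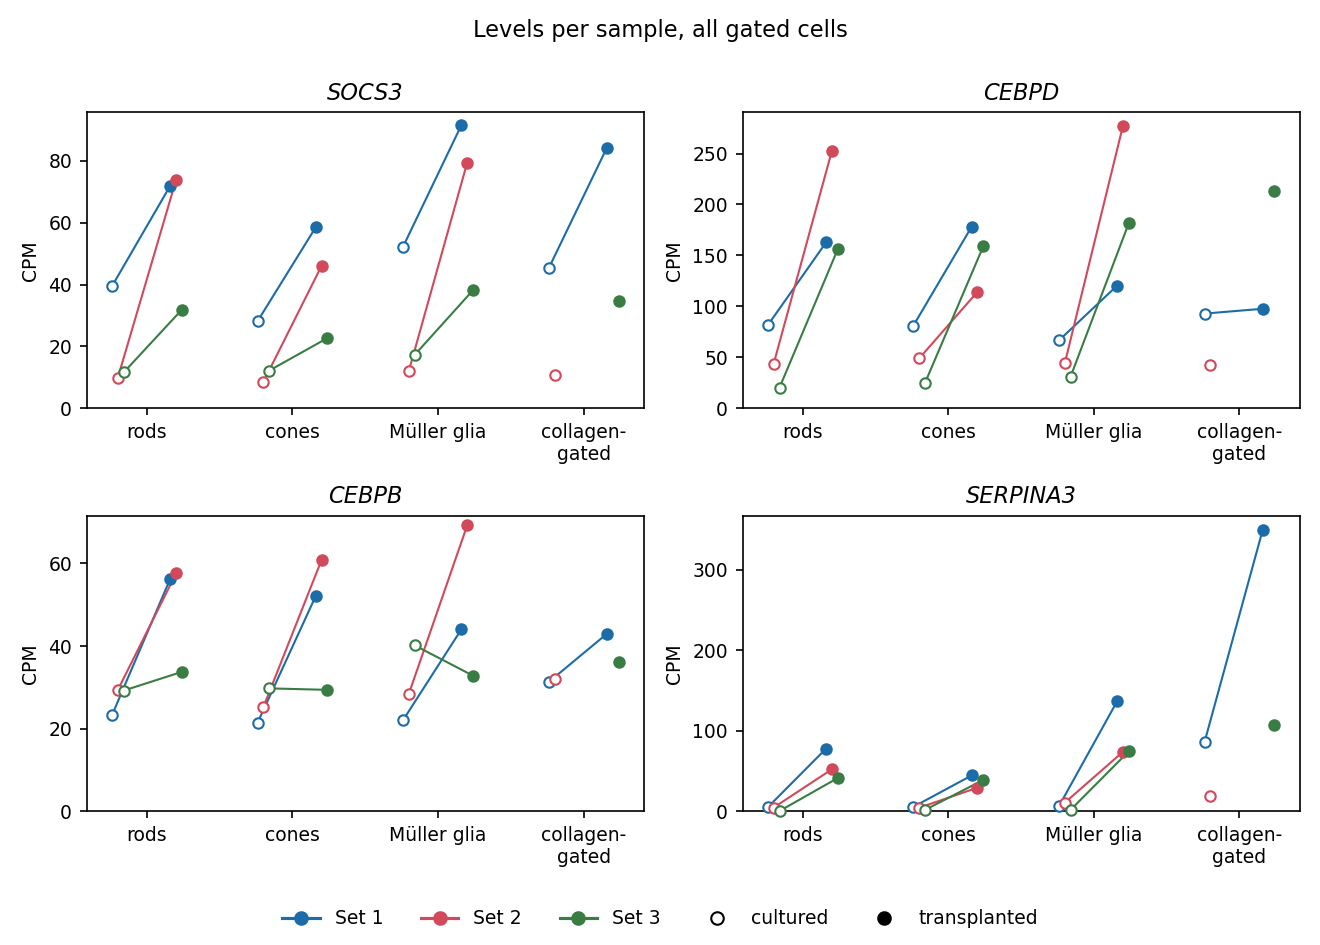
Levels of SOCS3, CEBPD, CEBPB and SERPINA3 over all gated cells, in CPM, by class. Open circles are cultured samples, filled circles transplanted ones, colours the Sets, and a line joins the samples of a Set. In rods CEBPD and SERPINA3 were higher in each transplanted sample than in any cultured one, while cultured Set 1 reached into the transplanted range of SOCS3.

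SERPINA3, the acute-phase protease inhibitor, had the largest change of the members, and in rods its level fell when cells of several gates were left out, which those of SOCS3 and CEBPD did less. Over all gated rods it was at 5.31, 4.87 and 0.579 CPM cultured (2 UMIs in Set 3) and 78.0, 52.3 and 41.5 CPM transplanted. Müller glia held 6.59, 10.9 and 2.08 CPM cultured (3 UMIs in Set 3) and 137, 74.1 and 74.8 CPM transplanted. Cones held 5.75, 4.64 and 2.03 CPM cultured and 44.7, 29.5 and 39.1 CPM transplanted. No transplanted value overlapped a cultured one in these classes. SERPINA3 rose in rods by 4.02 ± 0.33 on the log2 scale (edgeR adjusted p = 0.00029), in Müller glia by 3.95 ± 0.38 (edgeR adjusted p = 0.00020) and in cones by 3.07 ± 0.33 (edgeR adjusted p = 0.0011).

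Cells that passed several gates held between 89.9% and 100% of the SERPINA3 UMIs of rods, between 86.8% and 100% of those of cones and between 53.5% and 100% of those of Müller glia. Rods of 1 gate held 1.65, 0.842 and 0 CPM cultured and 31.4, 1.74 and 3.83 CPM transplanted, of which the Set 2 value was 2 UMIs, and SERPINA3 was too low there to be tested. Cones of 1 gate held 1.20, 1.42 and 0 CPM cultured and 28.2, 0 and 1.28 CPM transplanted, the last 2 from 0 and 1 UMIs, so only Set 1 held a clear difference, and it was not tested there either. Müller glia of 1 gate held 6.13, 9.81 and 0 CPM cultured and 146, 86.0 and 150 CPM transplanted, as high as over all gated Müller glia. With 0 UMIs in cultured Set 3, where 3 UMIs would have been 20.4 CPM, its ratio there was at least 7.33-fold, and the ratios of Sets 1 and 2 were 23.9 and 8.76. SERPINA3 rose in Müller glia of 1 gate by 4.21 ± 0.45 (edgeR adjusted p = 1.8e-08). The UMIs sat in few cells: in Müller glia of transplanted Set 1, 715 of 2578 cells had a SERPINA3 UMI and 1 cell held 178 of them, and in rods of transplanted Set 3, 143 of 1506 cells did and 1 cell held 213. After thinning to 1000 UMIs, 0.656%, 0% and 0% of cultured Müller glia of 1 gate had a UMI and 7.71%, 8.0% and 7.48% of transplanted ones, against 0.122%, 0.0864% and 0% and then 1.07%, 0.694% and 0.826% of rods of 1 gate.

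Among the gated classes, collagen-gated cells held the highest SERPINA3 levels before and after transplantation. They were at 86.2 and 18.7 CPM in cultured Sets 1 and 2 and 350 and 107 CPM in transplanted Sets 1 and 3, and in cells of 1 gate at 134 and 21.5 CPM cultured and 780 CPM in transplanted Set 1. A single cell of cultured Set 2 held 169 of the 287 UMIs over all gated cells (58.9%), and a single cell of transplanted Set 3 held 161 of 382 (42.1%). Over all gated cells they were above rods by 2.29 ± 0.34 (edgeR adjusted p = 0.00011) and above Müller glia by 1.46 ± 0.33 (edgeR adjusted p = 0.014). In cells of 1 gate Müller glia were above rods by 3.43 ± 0.65 (edgeR adjusted p = 0.0017) and collagen-gated cells above rods by 5.74 ± 0.76 (edgeR adjusted p = 0.00022), while the step from Müller glia to collagen-gated cells did not pass (2.31 ± 0.73, edgeR adjusted p = 0.089). From low to high, the order was rods and cones, whose difference of 0.24 ± 0.88 did not pass, then Müller glia, then collagen-gated cells. Cells of no gate in transplanted Set 1 held 194 CPM, against 14.0 CPM in its cultured sample, and those of transplanted Sets 2 and 3 held 6.16 and 10.1 CPM.

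**Figure D3:**
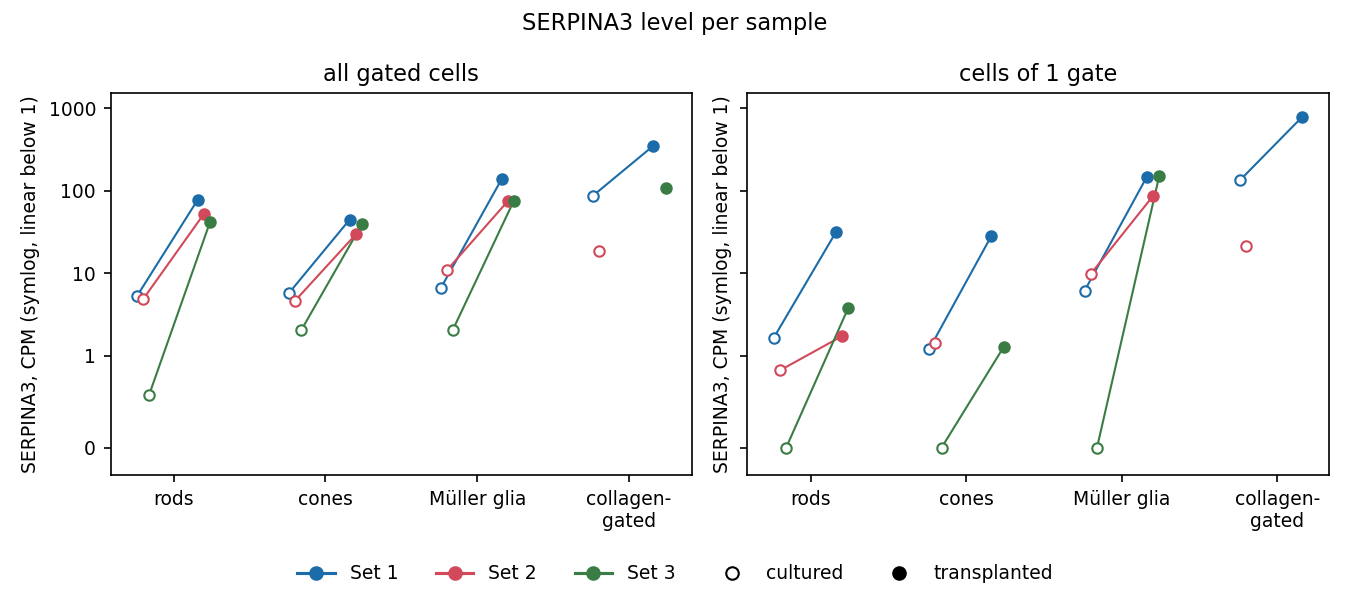
SERPINA3 level in CPM by class, on a symmetric log axis, over all gated cells and in cells of exactly 1 gate. Open circles are cultured samples, filled circles transplanted ones, and colours the Sets. Transplanted rods fell from 41.5 to 78.0 CPM over all gated cells to between 1.74 and 31.4 CPM with 1 gate, whereas transplanted Müller glia of 1 gate held 86.0 to 150 CPM.

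Counted over the members with a test, 2 of 8 rose in rods over all gated cells (SERPINA3 and CEBPB), where 2.83% of all genes tested were called and 1.47% rose. In cones SERPINA3 alone rose among the 7 tested members other than SOCS3 and CEBPD, beside 0.562% of all genes called and 0.241% risen. In Müller glia SERPINA3 rose among the 8 members other than SOCS3 and CEBPD, beside 2.2% called and 0.994% risen. Among cells of 1 gate the counts were 0 of 5 in rods (3.88% of all genes called, 1.56% risen), 2 of 5 in cones (CEBPD and CEBPB, 1.49% and 0.68%) and 2 of 8 in Müller glia (CEBPD and SERPINA3, 0.817% and 0.272%). No member fell. Without the Set as a block no gene was called in any of these classes. All these calls were of CEBPD, CEBPB or SERPINA3. The receptors, LIF, STAT3 and CISH were not called in rods, cones or Müller glia where they were tested. The median log2 change over all genes lay within 0.03 of 0 in each class.

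**Figure D4:**
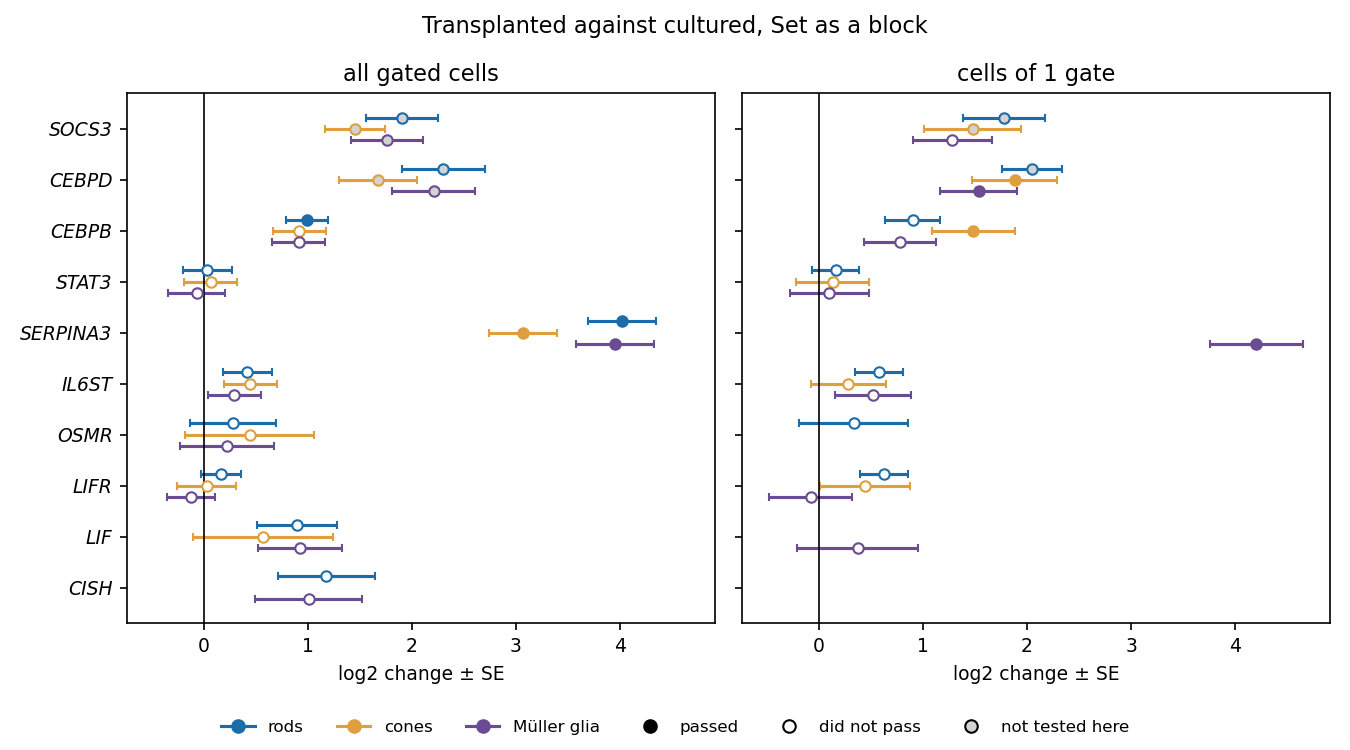
Fitted log2 change of each member, transplanted against cultured, with its SE, in rods, cones and Müller glia. Filled points passed the edgeR threshold, open points did not, and grey points are descriptions, SOCS3 and CEBPD where their values or shared cells chose the genes. SERPINA3 lies farthest to the right, from 3.07 in cones to 4.02 in rods over all gated cells, where STAT3 lies within 0.07 of 0.

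Between classes the share of members that differed is given beside that of all genes. Müller glia and rods differed in 2 of 10 members over all gated cells (26.8% of all genes) and in 5 of 9 in cells of 1 gate (46.8%). Collagen-gated cells and rods differed in 5 of 10 (43.3%) and 4 of 9 (38.6%), cones and rods in 1 of 10 (8%) and 2 of 9 (9.68%), and collagen-gated cells and Müller glia in 2 of 10 (9.92%) and 3 of 9 (8.58%). Each of the 5 members that differed in Müller glia of 1 gate was higher there than in rods, as were 23.2% of all genes: SOCS3, STAT3, SERPINA3, IL6ST and LIF. Over all gated cells these contrasts compare sums that share cells.

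**Figure D5:**
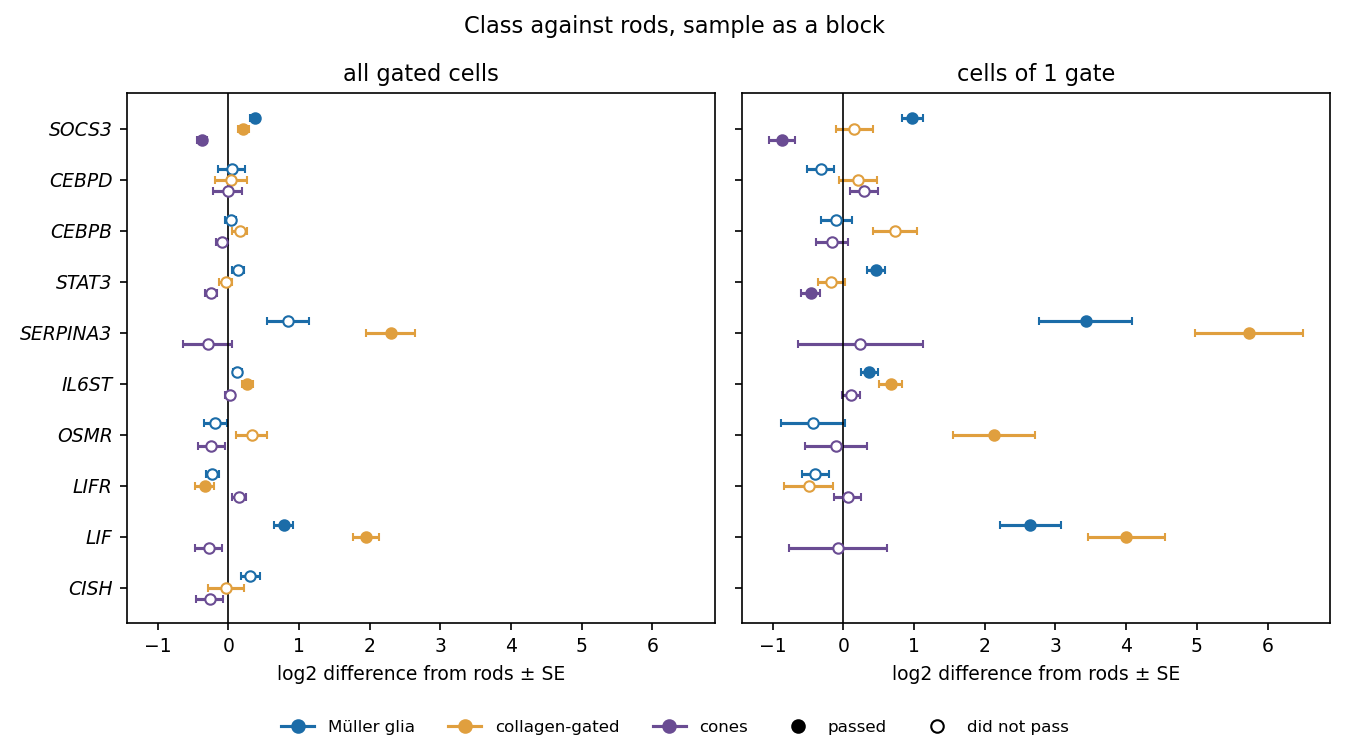
Difference of Müller glia, collagen-gated cells and cones from rods, in log2 units with its SE, over all gated cells and in cells of 1 gate. Filled points passed the edgeR threshold and open points did not. SERPINA3 and LIF stand apart in Müller glia and collagen-gated cells, by 3.43 and 2.64 and by 5.74 and 4.0 in cells of 1 gate.

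The responses themselves were compared between classes with an interaction term. SOCS3 and CEBPD, whose changes chose the set, were left out of the count, and none of the other members passed it over all Sets. For Müller glia against rods no gene passed, SOCS3 and CEBPD included. Over all gated cells the compared sums share cells, since 65.9% of the Müller glia and 67.8% of the cones of transplanted Set 3 were also gated as rods, so a small difference there says little. For SERPINA3 the response of Müller glia minus that of rods was -0.11 ± 0.20 over all gated cells and 0.86 ± 1.67 with 1 gate, the latter too imprecise to tell the classes apart. For Müller glia edgeR called 0 of all genes, with 409 genes at an unadjusted p below 0.05, and DESeq2 called 0 as well. For cones, where 0.0363% of genes were called, the SERPINA3 difference was -0.54 ± 0.31. For collagen-gated cells edgeR called 0 genes over all gated cells (281 at an unadjusted p below 0.05, 6 by DESeq2), and the SERPINA3 difference was -1.10 ± 0.77. Without Set 2 it was -2.24, given as a size only. Cultured Set 3 had only 9 collagen-gated cells, so that fit held 1 cultured sample (Set 1) beside transplanted Sets 1 and 3. In collagen-gated cells of 1 gate (0.268% of genes called) Set 1 alone had both samples, and CEBPD was there at 107 CPM cultured and 75.3 CPM transplanted, the latter from 11 UMIs.

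Other genes of the pathway moved in few cases. Of 17 further STAT3 target genes measured in rods, IER3, an early-response survival gene, rose by 1.55 (edgeR adjusted p = 0.027) and PIM3, a kinase, by 0.82 (edgeR adjusted p = 0.040), none fell, and the list's median was 0.49. With 1 gate PIM3 rose in rods by 0.85 (edgeR adjusted p = 0.027) and JUNB by 1.24 (edgeR adjusted p = 0.024). IER3 did not pass there, with a change of 0.04 ± 0.33 (edgeR adjusted p = 0.97). IRF1, also on the target list, rose in cones of 1 gate by 1.75 (edgeR adjusted p = 0.036). Over all gated cones IRF1 did not pass (0.63 ± 0.33, edgeR adjusted p = 0.49). In Müller glia IER3 rose by 1.65 (edgeR adjusted p = 0.024), and in those of 1 gate IER3 rose by 1.88 (edgeR adjusted p = 0.011) and ICAM1, an adhesion molecule, by 2.88 (edgeR adjusted p = 0.015). Of 16 other acute-phase genes 2 were measured in rods and none passed. Of 9 genes of reactive glia measured in rods, none passed over all gated cells, and in rods of 1 gate S100A10, CRYAB and CD44 fell, by 3.07, 1.29 and 0.82. DDIT3, a C/EBP family member of the stress response, rose in rods by 1.30 (edgeR adjusted p = 0.047) and did not pass in rods of 1 gate (0.96 ± 0.28, edgeR adjusted p = 0.067). It rose in Müller glia by 1.48 (edgeR adjusted p = 0.043) but did not pass in those of 1 gate (edgeR adjusted p = 0.36). In cones it rose with 1 gate by 1.85 (edgeR adjusted p = 0.0048) but did not pass over all gated cones (edgeR adjusted p = 0.13).

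Immediate-early genes, which enzymatic dissociation is known to induce, passed the test in part. Their 14-gene sum had a higher mean in transplanted rods, 4449 ± 1130 CPM against 2608 ± 850 CPM in cultured rods (SD, n = 3). The ranges across Sets overlapped, 1940 to 3564 CPM cultured and 3247 to 5489 CPM transplanted. In rods of 1 gate the sum was between 1432 and 2963 CPM cultured and between 2699 and 5054 CPM transplanted. Of the 14, DUSP1 and KLF4 rose over all gated rods, by 1.25 and 1.41 on the log2 scale (median of the 14, 0.98), and BTG2, DUSP1, JUN and JUNB rose in rods of 1 gate, by 1.46, 1.05, 1.36 and 1.24 (median 0.90). In collagen-gated cells of 1 gate the sum was 2526 CPM in the transplanted sample and 2615 to 4607 CPM in cultured ones, with 6 cells in cultured Set 3. Their part in the results was not tested. Markers of myeloid cells, a source of cytokines in injured retina, summed over 8 genes to 2.27 to 4.32 CPM in cultured and 0.868 to 5.29 CPM in transplanted rods of 1 gate, where between 1 and 7 of the 8 were at 0 in a sample. These values describe rods of 1 gate only. The markers were not summed in cells of no gate, so whether the samples held myeloid cells was not tested. The median mitochondrial share was higher in transplanted rods of each Set, 4.35% against 1.70%, 3.42% against 2.76% and 3.28% against 1.16%, and its part was not tested. Cells with a low share of human clone-named genes, which dog cells would lack, were also removed. The cut was the 1st percentile of cultured cells of the same Set and class. It took out 27.9% of the rods, 45.1% of the cones and 67.0% of the Müller glia of transplanted Set 3, and 10.5% of the Müller glia of transplanted Set 2. In Set 3 the share over the whole class was lower in transplanted than in cultured samples, 2.30% against 3.67% in rods and 1.94% against 3.36% in Müller glia. In rods of Set 2 it was 1.71% against 1.69%. Whether the cells removed were dog cells was not tested. SERPINA3 stayed higher by 4.10 in rods, 2.86 in cones and 3.75 in Müller glia, each past the threshold.

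SOCS3 and OSMR were compared with all other genes at a mean of 30 CPM or more over the 22 class sums, by Pearson's correlation of log2(CPM + 1). Among 5881 genes, those most like SOCS3 were RPL36A (0.969), RPS25 (0.947), JUNB (0.947), RPLP2 (0.939) and RPL34 (0.931). Those most like OSMR were CD2AP (0.973), ICE1 (0.953), EEA1 (0.937), GMDS (0.932) and SVIL (0.930). The 22 sums share libraries, Sets, cells of several gates and processing versions, so these values describe the sums only.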

How the data were processed

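The deposited matrices hold raw, unnormalized UMI counts for each gene and barcode, which the authors made with Cell Ranger 6.0.2 (Set 1) and 7.1.0 (Sets 2 and 3) on GRCh38, per the file headers; libraries were 10x 3' v3.1, per the labels' protocols. Whether intronic reads were counted is not given in the sources used here. The members and gene lists were chosen with earlier results of these data known.

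Cells with at least 1000 UMIs, 500 genes and at most 20% mitochondrial UMIs were kept. Scrublet (Scanpy 1.11.5) scored doublets per sample, and the highest scores up to 0.8% per 1000 cells were removed. Median depth was 2109.5 to 4082 UMIs per cell. Raw counts were summed per class and sample, with at least 20 cells. edgeR 4.0.16 (R 4.3.3; filterByExpr, TMM, robust quasi-likelihood, Benjamini-Hochberg adjusted p below 0.05 over all genes) was fitted with the Set as a block for transplantation, and with the sample as a block for class differences and their interaction with transplantation. The Set pairs the samples, since the series' design text gives both kinds of fragments of 1 experiment the same batch of organoids. That a Set is 1 such experiment is read from the sample titles, which name only the Set. DESeq2 1.42.0 was an alternative. The code was tested on simulated data. Named genes were the members, and the genes of fixed pathway lists that passed the test. Gene positions came from GENCODE 29 and promoters from RefSeq (GRCh38.p14). Shares of cells with a UMI cover counting error only, as do limits from a count of 0, taken as 3 UMIs. No pair of samples shared more than 0.729% of the smaller one's barcodes.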

Additional observations from a re-analysis of the deposited data

How the results depend on the processing

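The number of members called was recomputed under each alternative. Without the replicate block the number was 0 in rods, cones and Müller glia, and 0 of all genes were called. With the block it was 2 in rods and 1 in cones. In Müller glia it was 3, of which only SERPINA3 is a test. SOCS3 and CEBPD, the rest of the 3, share cells with the rods that chose them. Counts below can include CEBPD in cones and both genes in Müller glia, so they are not alike between classes. For transplantation in rods the number called was 0 in cells of exactly 1 gate and 0 when those were thinned to 1000 UMIs. It was 1 without any 1 replicate, or 0 to 1 in cells of 1 gate without a replicate. In cones it was 2 with DESeq2, upper-quartile factors, no low-count filter or exactly 1 gate, 3 with gates on thinned cells or the host filter, 0 with 1 gate thinned, and 2 to 3 without a replicate. In Müller glia it was 1 with 1 gate thinned and 1 with 1 gate and a replicate left out. For Müller glia against rods (2) it was 5 with 1 gate or gates on thinned cells, 4 on thinned cells, 1 in cultured samples alone and 4 to 5 without a replicate. For collagen-gated cells against rods (5) it was 3 with no filter or gates at 5 UMIs, 2 with the host filter, cultured samples alone or thinned cells, 1 with 1 gate thinned and 2 to 3 without a replicate. For cones against rods (1) it was 2 with DESeq2, upper-quartile factors, 1 gate, gates on thinned cells or thinned cells, 0 in cultured samples alone and 0 to 2 without a replicate. For collagen-gated cells against Müller glia (2) it was 6 with gates on thinned cells, 1 with thinned cells, cultured samples alone or 1 gate thinned, and 1 to 4 without a replicate. For the response of collagen-gated cells against rods it was 0. In cells of 1 gate, or without a replicate, a group was left with 1 sample, so no count is read there. The share of all genes called moved too, for Müller glia against rods from 26.8% over all gated cells to 46.8% with 1 gate. For collagen-gated cells against rods it went from 43.3% to 38.6%. The shares under the other alternatives are not given, so the shifts are not read as results about the members. The cause of these shifts was not tested. The sign turned in 3 values for single genes: CEBPD in Müller glia against rods, 1 gate (-0.51 to 0.24 over all fits without a replicate), LIFR in collagen-gated cells against rods with gates on thinned cells (0.20), and SOCS3 there (-0.036 to 0.47 over the fits without a replicate). Of the other values for single genes, 1423 kept their call and direction, 68 lost and 71 gained a call. The alternatives that use thinned or 1-gate cells with a replicate left out were chosen after seeing the data. A blocked fit in collagen-gated cells was not possible, since only Set 1 had both samples at 20 cells; without the block 4 samples called 0 genes. Gates on thinned cells could not be fitted for transplantation in Müller glia. Depth limits SERPINA3 in cultured Set 3, with 0 to 3 UMIs.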
